A study of Mus musculus with 28 samples.

Results

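The comparison described here is the step from 1h to 12h in the conversion of Pre-B cells into macrophages. It covers the changes in RNA level that followed the first hour of induction. It used 6 of the 28 samples of the series, namely the RNA-seq libraries of C10 cells taken at 1h (3 biological replicates) and at 12h (3 biological replicates) of induction. C10 is a mouse Pre-B line derived from HAFTL cells, and both groups carried the same transgene, rat C/EBPα fused to the hormone-binding domain of the estrogen receptor. Both groups had received 100 nM β-estradiol, 10 nM IL-3 and CSF-1, so that they differed in the time of induction. C10 is 1 transgenic line and C/EBPα came from the transgene, so these libraries describe a driven conversion and not a cell of the animal. The 3 libraries of uninduced cells (0h) and the 3 libraries of cells induced for 48h entered neither this test nor the size factors of the 1h and 12h libraries. They served to see where each change began and where it went. The 0h samples are listed without β-estradiol or IL-3. Effects of C/EBPα and of the other additions thus cannot be told apart in the step from 0h to 1h.

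C/EBPα is a basic leucine zipper transcription factor that specifies granulocytes and macrophages in bone marrow and that is absent from normal B cell precursors. When it is active in a Pre-B cell it opens myeloid enhancers together with PU.1, interferes with the program held by Pax5 and Ebf1, and stops proliferation, in part by acting against E2F. E2F factors turn on the genes of DNA synthesis at the start of S phase, whereas genes of mitosis are turned on later through NF-Y and a sequence called the cell cycle genes homology region (CHR).

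Of 55450 genes in the deposited table, 9696 had a mean TPM (transcripts scaled to a fixed total in each library) of at least 1 over the 6 libraries and were tested. An entry for Ptp4a1, with a mean of exactly 1, was the last inside this limit, and Pqlc2, with 0.998, was the first outside it. TPM were divided by a size factor for each library (the median ratio to the geometric mean of the 6 libraries, 1.03 to 1.21 at 1h and 0.814 to 1.04 at 12h), and all values below are these scaled TPM. TPM are corrected for transcript length but keep no record of sequencing depth, so the depth behind each value is unknown. A pair of genes at a ribosomal RNA locus took between 70.3% and 79.5% of all TPM in these 6 libraries. Libraries of the same time point correlated with r between 0.840 and 0.883 across the tested genes, and libraries of different time points with r between 0.704 and 0.760. In bulk RNA, fewer cells of a type and less RNA per cell cannot be told apart, here and in each result that follows.

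At 12h, 1058 genes were higher than at 1h (10.9% of the genes tested) and 831 were lower (8.57%), by a Benjamini-Hochberg adjusted p under 0.05 in limma and a log2 difference beyond 1. Together these were 1889 genes (19.5%), of which 1885 showed no overlap between the libraries of the 2 times, against 4893 (50.5%) of all genes tested. The median gene differed by -0.01 on the log2 scale, with quartiles at -0.50 and 0.52, so the center of the distribution stayed in place after scaling. The split between the directions rested on that scaling: on the TPM as deposited, where the median gene lay at -0.34, 680 genes were higher and 1484 lower. Calls of single genes rested on the processing in part: 1510 of the 1889 were kept on the TPM as deposited and 1288 with a pseudocount of 1. No called gene changed its sign under an alternative that tested it. A call needs a difference beyond 1, so this was likely beforehand.

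**Figure D1:**
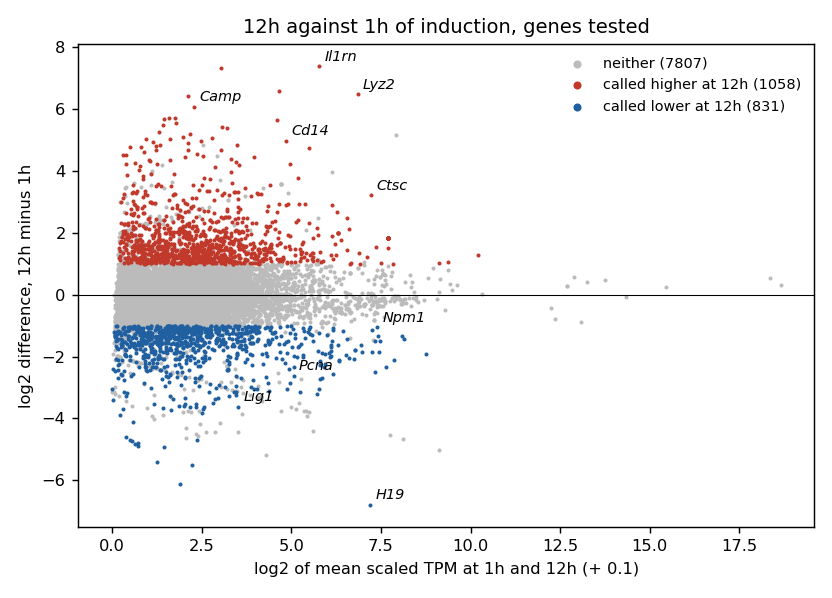
Each point is 1 of the 9696 tested genes. The horizontal axis gives the log2 of its mean scaled TPM over the 1h and 12h libraries (0.1 added) and the vertical axis the log2 difference, 12h minus 1h. The 1058 genes called higher are red, the 831 called lower are blue, and H19, Lig1, Lyz2 and Il1rn lie at the ends of the distribution.

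To separate changes that began after the first hour from those already under way, each called gene was also compared between 0h and 1h. A change was taken to have started after the first hour where 1h and 0h differed by no more than 0.5 on the log2 scale with an adjusted p of at least 0.05. Between 0h and 1h, 483 genes (4.98%) were higher and 281 (2.9%) lower by the limits used for 12h. By the rule for a later start, 502 of the tested genes rose (5.18%) and 557 fell (5.74%) after the first hour. The rule is a description: both steps share the 1h libraries, and an adjusted p above 0.05 does not show that a gene stood still in the first hour. Among called genes E2f1 was just inside the limit and Spata5l1 just outside it, both at 0.50 after rounding (1h minus 0h).

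The labels were checked against marker genes of Pre-B cells, macrophages, granulocytes and other cells. At 1h the libraries still held some of the Pre-B genes, with Cd79a at 45.9 ± 3.94 (SD, n = 3) and Vpreb3 at 52.0 ± 4.61. Other Pre-B genes had largely gone. Rag1 and Rag2, which cut the immunoglobulin genes, lay between 0 and 0.158 in each 1h library after 1.80 to 3.88 at 0h. Il7r lay between 0.361 and 1.24 at 1h after 9.72 to 10.1 at 0h. Vpreb3 and Cd79b were also below their 0h levels at 1h, with values given below. At 12h the macrophage genes Lyz2, Cd14, Csf1r and Cebpb were present beside the remaining Pre-B transcripts. Itgam, which encodes CD11b, reached only 0.278 to 0.789 at 12h (14.2 to 16.9 at 48h), and Adgre1 and Msr1 were listed at 0 in at least 2 of the 3 libraries at 12h. Of 7 granulocyte markers Mpo and Ctsg were listed at 0 in every library and Elane, Ltf and Ngp did not exceed 0.292, whereas Camp reached 8.12 to 10.4 and Prtn3 1.62 to 3.20 at 12h. S100a8, a calcium-binding protein of neutrophils and monocytes, was listed at 0 at 1h and was at 1.02 to 2.65 at 12h. Of 20 marker genes of T cells, erythroid cells, mast cells, megakaryocytes, fibroblasts and epithelium, none passed the filter, their summed level was 0.473 to 0.604 at 1h and 0.209 to 1.75 at 12h, and 15 were listed at 0 in all 12 libraries.

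Several promoters are shown here as examples of called genes. Each was picked because it holds the motif of its set, so the difference between the sets follows from that choice. Matches to other motifs are left unmarked, and the shares of genes with each motif are given below. The sequences are the 150 bases before the start site in RefSeq (GRCm38.p6), 5′ to 3′ on the strand of the gene. Capitals mark each match, on either strand, to the motif of the set. In the first pair, genes of DNA replication that fell, the capitals are E2F matches (TTTNGCGC), and the first capital run of Mcm6 holds 2 overlapping matches on opposite strands.
Mcm6, chr1:128359706-128359855, minus strand: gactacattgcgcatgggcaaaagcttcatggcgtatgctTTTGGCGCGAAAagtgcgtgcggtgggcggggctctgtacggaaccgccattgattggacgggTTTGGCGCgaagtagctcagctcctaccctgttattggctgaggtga
Pola1, chrX:93632156-93632305, minus strand: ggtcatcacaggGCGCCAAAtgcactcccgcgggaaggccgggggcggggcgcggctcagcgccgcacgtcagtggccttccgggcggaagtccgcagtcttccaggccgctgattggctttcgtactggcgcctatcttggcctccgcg
In the second pair, genes of mitosis that fell, the capitals are CHR matches (TTTGAA).
Top2a, chr11:99024190-99024339, minus strand: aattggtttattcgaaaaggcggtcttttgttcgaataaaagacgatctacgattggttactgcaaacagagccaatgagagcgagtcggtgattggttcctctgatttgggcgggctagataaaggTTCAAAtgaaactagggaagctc
Kif11, chr19:37376232-37376381, plus strand: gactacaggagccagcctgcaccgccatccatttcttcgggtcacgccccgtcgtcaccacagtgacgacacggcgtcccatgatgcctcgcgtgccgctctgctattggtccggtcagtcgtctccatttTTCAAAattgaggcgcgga
In the third pair, myeloid genes that rose, the capitals are C/EBP matches (TTGCNNAA). The RefSeq start of Fcgr3 lies inside the gene as GENCODE annotates it (chromosome 1, 171051174 to 171064935), so its sequence is that of an internal start.
Fcgr3, chr1:171059404-171059553, minus strand: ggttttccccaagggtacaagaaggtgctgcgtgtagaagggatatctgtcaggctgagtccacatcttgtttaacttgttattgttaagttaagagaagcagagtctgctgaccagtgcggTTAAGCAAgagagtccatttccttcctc
Mmp8, chr9:7558279-7558428, plus strand: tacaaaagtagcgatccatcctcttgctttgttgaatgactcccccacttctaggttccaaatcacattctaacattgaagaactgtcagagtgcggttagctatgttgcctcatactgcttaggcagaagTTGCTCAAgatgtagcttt

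Of the gene lists, DNA replication had the lowest median log2 difference between 1h and 12h. Of 42 genes on this list, 41 were tested and 38 fell, against 8.57% of all genes tested. None rose, and the list median was -2.20 on the log2 scale. Of the 38, 30 started after the first hour, against 557 of all 831 genes called lower. Cdc6, Gins1 and Prim1 were among the members that had a 12h mean under a TPM of 1 and passed the filter through their 1h level alone. Lig1, the ligase that joins Okazaki fragments (chromosome 7, 13277283 to 13311433, with exons that overlap Zswim9 on the other strand), was at 24.6, 17.8 and 20.3 in the 1h libraries and at 1.65, 1.12 and 2.15 in the 12h libraries. Its libraries at 12h all lay far below those at 1h, by 3.62 ± 0.24 (SE) on the log2 scale or 12.3-fold, with a limma adjusted p of 0.000127. At 0h it had been at 22.1 ± 1.33 (SD, n = 3), close to its 1h level.

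Pcna, the sliding clamp of the replicative polymerases (chromosome 2, 132249162 to 132253314), was at 57.5, 58.6 and 55.5 at 1h and at 8.97, 8.13 and 10.9 at 12h, a fall of 6.13-fold (adjusted p = 5.74e-05). It then stayed at 9.39 ± 1.79 (SD, n = 3) at 48h. Rrm2, the regulated subunit of ribonucleotide reductase, which makes deoxynucleotides, went from 40.3, 38.7 and 32.0 to 4.45, 4.46 and 3.63, a fall of 8.67-fold (adjusted p = 4.37e-05). The groups of both genes were far apart, and Rrm2 went on falling to 0.420 ± 0.257 at 48h. The MCM2 to MCM7 complex is the helicase that opens the double helix, and its genes moved as a block: the log2 differences were -2.99 for Mcm2, -3.15 for Mcm3, -3.23 for Mcm4, -2.70 for Mcm5, -2.77 for Mcm6 and -3.04 for Mcm7, each with an adjusted p under 0.05. Mcm6 (chromosome 1, 128331590 to 128359664), with the E2F matches shown above, was at 24.99, 27.1 and 26.8 at 1h and at 3.06, 4.74 and 3.67 at 12h. Cdc6, which loads that helicase at origins, fell by 3.54 on the log2 scale, and Dut, which keeps uracil out of DNA, by 3.36. Uhrf1, which hands methylation marks to the new strand, fell by 3.04 and its partner Dnmt1 by 1.94.

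The 3 tested members that did not pass were Tyms, Orc1 and Gins4. Tyms, the enzyme that makes thymidylate, stood out within the list at 13.99, 18.4 and 15.7 at 1h against 13.7, 12.3 and 14.5 at 12h, so that its libraries overlapped (log2 difference -0.24 ± 0.14, adjusted p = 0.227). Orc1, a subunit of the origin recognition complex, was low and variable, at 1.45 to 2.94 and 1.04 to 3.22. Gins4 differed by -0.63. Thus nearly the whole list fell, but not each of its enzymes.

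Replication-dependent histone genes, which supply S phase and whose transcripts lack a poly(A) tail, could be read because the libraries were made by rRNA depletion. Of 69 such genes listed, 62 were tested and 60 fell (8.57% of all genes tested fell), with a list median of -1.93. Of the 60, 52 started after the first hour, against 557 of all 831 genes called lower. Many of these genes are near-identical copies, so the share of reads given to each one is uncertain. Hist1h2an went from 95.3, 102 and 87.7 at 1h to 9.68, 13.7 and 7.66 at 12h (log2 difference -3.23 ± 0.21, adjusted p = 0.00012). Hist2h2ab and Hist1h2af, like Hist1h2an genes of histone H2A, fell by 3.28 and 3.04. The call of Hist2h2ab was lost without any 1 of the 1h libraries or without 12h replicate 2 (adjusted p of 0.0725 to 0.132), and that of Hist1h2an with all 12 libraries in 1 model (0.0823). The linker histone gene Hist1h1e differed by less and went from 63.7, 62.6 and 76.2 to 25.5, 25.2 and 31.8 (-1.29 ± 0.14, adjusted p = 0.000695). In both genes the libraries of the 2 times did not overlap. The 2 that did not pass were Hist1h2aj and Hist1h4m, whose levels ranged from 0 to 66.6 and from 0 to 60.9 between replicates.

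Fewer genes of mitosis had fallen by 12h. Of 48 listed genes 47 were tested (Sgol1 was not found under that symbol), 24 fell (8.57% of all genes tested did) and none rose. The list median was -1.02. Of the 24, 20 started after the first hour, against 557 of all 831 genes called lower. On the TPM as deposited 35 passed as lower, and Ttk passed the filter through its 1h level alone. Cdk1, the kinase that drives entry into mitosis (chromosome 10, 69335146 to 69352938), was at 26.6, 24.0 and 26.9 at 1h and at 13.7, 11.4 and 11.3 at 12h, a 2.12-fold fall (adjusted p = 0.000865, and 0.187 with all 12 libraries in 1 model). Top2a, the topoisomerase that disentangles sister chromatids, went from 29.3, 32.0 and 32.0 to 11.8, 9.98 and 10.6, a 2.87-fold fall (adjusted p = 0.000187). For both, no library at 12h reached the lowest at 1h. Ttk, a kinase of the spindle checkpoint, Espl1, the protease that releases sister chromatids, and Ncaph, a condensin subunit, had the largest falls of the list, by 1.87, 1.85 and 1.79 on the log2 scale.

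The other 23 tested genes of mitosis did not pass at 12h. Ube2c, the ubiquitin-conjugating enzyme of the anaphase-promoting complex, was at 13.8, 15.6 and 14.1 at 1h and at 13.9, 15.3 and 9.84 at 12h, with overlapping libraries (log2 difference -0.18 ± 0.18, adjusted p = 0.484). Ccnb1, the mitotic cyclin B1, lay lower at 12h without overlap (12.9, 17.4 and 16.4 against 7.58, 8.93 and 7.65) but under the fold limit (-0.93 ± 0.15, adjusted p = 0.00366). By 48h the picture differed: Ube2c was listed at 0 in each library, Ccnb1 was at 0.0978 ± 0.0861 (SD, n = 3) and Cdk1 at 0.192 ± 0.333. Relative to 0h, the median member of the mitosis list lay at 0.07 at 1h, -0.92 at 12h and -4.22 at 48h, and the median member of the replication list at -0.12, -2.38 and -3.58. The difference between the lists was not tested.

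**Figure D2:**
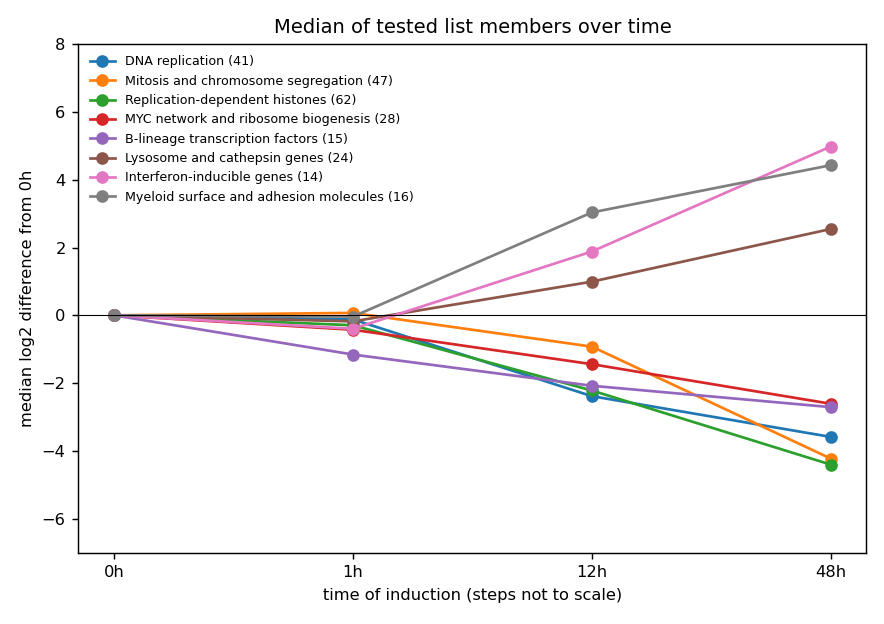
Median log2 difference from 0h (vertical axis) of the tested members of 8 gene lists at 0h, 1h, 12h and 48h of induction (horizontal axis, steps not to scale), with the number of members in the key. DNA replication and histone genes leave the zero line between 1h and 12h, mitosis genes go from -0.92 at 12h to -4.22 at 48h, and B-lineage transcription factors fall already in the first hour.

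Most tested regulators of the G1 to S transition fell as well. Of 22 cyclins, kinases, E2F and RB family genes 20 were tested, 11 fell and 1 rose, against 8.57% and 10.9% of all genes tested, with a list median of -1.05. Ccne2, E2f2, E2f3 and E2f7 passed the filter through their 1h level alone. Ccne2, which encodes cyclin E2, was at 8.95, 10.0 and 8.47 at 1h and at 0.995, 0.834 and 0.318 at 12h, well apart (log2 difference -3.61 ± 0.36, adjusted p = 0.000447). It had been lower at 0h, at 4.67 ± 1.44, so its fall followed a higher level at 1h. E2f2, an activating E2F, fell by 3.26 from a 1h mean of 2.28 that was close to its 0h mean of 2.43. E2f7 and E2f8, repressive E2F factors, fell by 2.65 and 2.18, and E2f1 by 1.89. Ccnd1, which encodes cyclin D1, was the exception: its 1h libraries (2.31, 2.57 and 3.91) lay below its 12h libraries (9.76, 10.0 and 8.19), a 3.18-fold rise (adjusted p = 0.00129), after 23.6 ± 4.97 at 0h.

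Among 14 tested inhibitors of the cell cycle (17 listed), 4 rose and 1 fell, against 10.9% and 8.57% of all genes tested. Btg2 and Tob1 passed the filter through their 12h level alone and Cdkn2c through its 1h level alone. Cdkn1a, which encodes the kinase inhibitor p21, rose 4.18-fold from 4.06, 4.35 and 3.79 to 18.4, 17.5 and 16.1 (adjusted p = 8.77e-05), with no overlap. Btg2 and Tob1, antiproliferative genes of the same family, rose by 2.41 and 1.52 on the log2 scale from 1h means under 1, and their relative Btg1 rose by 1.60. Cdkn2c, which encodes p18, fell by 1.59. Other genes of proliferation and repair were among those of largest fall after the first hour. Mybl2, the B-MYB factor of late S phase, went from 9.91, 10.2 and 12.1 to 1.08, 0.440 and 0.933, and Chek1, the checkpoint kinase of stalled forks, from 8.83, 7.96 and 4.86 to 0.688, 0.220 and 0.693. Both fell, by 3.64 and 3.60 on the log2 scale, and lack of overlap was a condition for naming them. Dtl, part of the ligase that destroys CDT1, fell by 3.73, but had already gone from 8.47 ± 1.23 at 0h to 5.71 ± 0.604 at 1h. Mybl2, Chek1 and Dtl had 12h means under 1 and passed the filter through their 1h level alone.

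Genes of ribosome biogenesis also fell. Of 28 tested genes of the MYC network and ribosome biogenesis (30 listed) 13 fell and 3 rose, against 8.57% and 10.9% of all genes tested, with a list median of -0.88. The share that rose is near the background. Nop56, a core protein of box C/D ribonucleoproteins, went from 45.0, 46.2 and 46.1 to 10.9, 13.4 and 12.7, a 3.70-fold fall (adjusted p = 0.000109). Its exons overlap small nucleolar RNA genes, whose reads cannot be told apart from it. Polr1b, a subunit of RNA polymerase I, and Gnl3, a nucleolar GTPase, fell by 1.66 and 1.49. Npm1, the most abundant member at 235, 240 and 208, was at 118, 108 and 102 at 12h, a 2.08-fold fall (adjusted p = 0.000774). The libraries of neither gene overlapped. Myc itself was at 18.7 to 20.8 at 1h and at 11.04 to 15.3 at 12h, under the fold limit (-0.52 ± 0.15, adjusted p = 0.0368), after 39.6 ± 1.81 at 0h. The 3 members that rose were Mxd4, Mxd1 and Mnt, which encode MAX partners that oppose MYC. Mxd4 rose 10.2-fold, from 1.41, 0.712 and 0.984 to 9.12, 12.0 and 12.5 (adjusted p = 0.000182). Of these 3, only 1 passed on the TPM as deposited, and the call of Mnt was also lost without 1h replicate 1 (log2 difference 0.88) or 12h replicate 3 (0.94).

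The Pre-B program went on falling from a start made in the first hour. Of 17 tested genes of the pre-B receptor and its signalling (19 listed) 8 fell and 1 rose, against 8.57% and 10.9% of all genes tested, and none of the 8 started after the first hour by the rule above. Cd22 and Vpreb2 passed the filter through their 1h level alone. Vpreb3, which assists assembly of the receptor (chromosome 10, 75943057 to 75949657), was at 51.3, 47.7 and 56.9 at 1h and at 6.06, 6.26 and 6.03 at 12h, an 8.36-fold fall (adjusted p = 1.81e-05), after 102 ± 7.75 at 0h. Igll1, Vpreb1 and Vpreb2, the surrogate light chain, fell by 1.53, 1.91 and 3.88, with reads of the near-identical Vpreb1 and Vpreb2 hard to assign, and Cd24a, a surface glycoprotein, by 2.26. Signalling proteins that macrophages share with B cells were not called: Syk differed by 0.33, Btk by 0.10 and Plcg2 by 0.36 on the log2 scale. Lyn, at 29.0 on average at 1h and 56.1 at 12h, was just under the fold limit with 0.95.

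Cd79b, which encodes the Igβ chain of the receptor, went the other way. It was at 5.19, 3.58 and 4.68 at 1h and at 13.8, 14.6 and 14.8 at 12h, a rise of 3.20-fold (adjusted p = 0.000384) without overlap. At 0h it had been at 45.4 ± 1.14 (SD, n = 3), so that its 12h level was below that of uninduced cells, and at 48h it was at 23.6 ± 1.06. Its partner Cd79a was at 45.9 ± 3.94 at 1h and 28.0 ± 0.828 at 12h, under the fold limit (-0.71, adjusted p = 0.00298).

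B-lineage transcription factors fell in 9 of 15 tested cases (18 listed), against 8.57% of all genes tested, and rose in none, with a list median of -1.20. Spib and Bach2 passed the filter through their 1h level alone. Pax5, which holds B cell identity, was at 8.70, 8.49 and 8.58 at 1h and at 3.39, 3.69 and 3.05 at 12h (-1.32 ± 0.13, adjusted p = 0.000386). Ebf1, its upstream partner, went from 11.5, 13.6 and 11.4 to 3.65, 3.53 and 4.64 (-1.61 ± 0.16, adjusted p = 0.000408). Both had fallen in the first hour too, from 22.7 ± 2.05 and 20.6 ± 1.61. Myb, a factor of progenitors, behaved otherwise: it was higher at 1h (33.2, 34.8 and 32.0) than at 0h (22.9 ± 1.68) and then fell to 5.78, 4.76 and 5.19 at 12h, by 2.65 on the log2 scale (adjusted p = 3.83e-05). Only Spib of this list, which fell by 2.57, met the rule for a start after the first hour. Bach2, a repressor of myeloid genes in B cells, fell by 2.61. Without 1h replicate 1 its call was lost (adjusted p = 0.0563). On the TPM as deposited, 11 of these transcription factors passed as lower. Of 10 genes of V(D)J recombination and end joining only 3 were tested, of which Xrcc6, the Ku70 subunit, fell by 1.06. Its call was lost without 1h replicate 1, 1h replicate 3 or 12h replicate 2 (adjusted p of 0.0511 to 0.064) and, under the fold limit, with a pseudocount of 1.

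The genes of largest change between 1h and 12h are mostly outside these programs. H19, an imprinted noncoding RNA (chromosome 7, 142575529 to 142578143), had the largest fall of all genes tested, from 288, 287 and 296 to 2.67, 2.21 and 2.71, or 111-fold (adjusted p = 1.35e-06). It had been at 426 ± 10.2 (SD, n = 3) at 0h and was at 1.47 ± 0.536 at 48h, so a smaller part of the loss came in the first hour and most of it between 1h and 12h. Its exon holds Mir675, whose reads cannot be separated. Ighv14-2, an immunoglobulin variable gene, went from 5.05, 6.12 and 4.22 to 0.406, 0 and 0, and related variable genes share sequence with it. Cxcr4, the receptor that keeps precursors in the bone marrow, fell from 11.6, 9.54 and 10.1 to 0.946, 0.382 and 0.703 (-3.82 ± 0.29, adjusted p = 0.000178). Car2, carbonic anhydrase 2, was at 10.5, 11.2 and 10.3 and then at 0.492, 0.706 and 1.11, a 12.9-fold fall (adjusted p = 0.000148) that started after the first hour. Ighv14-2, Cxcr4 and Car2 had 12h means under 1 and passed the filter through their 1h level alone.

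In the other direction, Lyz2, the lysozyme gene of macrophages (chromosome 10, 117277331 to 117282321), had the largest rise among genes that started after the first hour. It was at 2.83, 2.15 and 2.44 at 1h and at 210, 228 and 244 at 12h, an 88.9-fold rise (adjusted p = 2.4e-06). At 0h it was at 1.88 ± 0.144 and at 48h at 214 ± 5.94, which places the rise between 1h and 12h. Il1rn, the secreted antagonist of interleukin 1 (chromosome 2, 24336853 to 24351494), rose 168-fold, from 0.688, 0.559 and 0.409 to 114, 107 and 103 (adjusted p = 4.1e-06). It was among the genes already on the way at 1h, from 0.0417 ± 0.0493 at 0h. Hp, which encodes haptoglobin, went from 0.166, 0.593 and 0.672 to 47.6, 49.4 and 53.3, and Vsir, an inhibitory receptor of the immunoglobulin family, from 1.66, 0.457 and 0.779 to 44.6, 49.7 and 47.4. Lack of overlap was a condition for naming these 4 genes. Il1rn, Hp and Vsir had 1h means under 1 and passed the filter through their 12h level alone.

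Tyrobp, which encodes the adaptor DAP12, was listed at 0 in each 1h library and at 13.5, 17.0 and 17.9 at 12h, for which no fold is given. Other genes started from levels near 0, so that their fold depends on the 0.1 added. Fcgr3, a low-affinity receptor for IgG, was at 0, 0 and 0.0487 and then at 5.97, 5.58 and 5.93. Lilrb4a, an inhibitory receptor with exons shared with Gm49339, went from at most 0.0415 to 6.97, 4.31 and 3.97. Rab44, a large RAB GTPase, went from at most 0.0332 to 4.95, 4.83 and 9.60, and Serpinb2, a plasminogen activator inhibitor, from at most 0.0779 to 6.07, 8.24 and 5.54. These 4 were near 0 at 1h in each replicate. Like Tyrobp, they passed the filter through their 12h level alone and were named on the condition of no overlap.

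**Figure D3:**
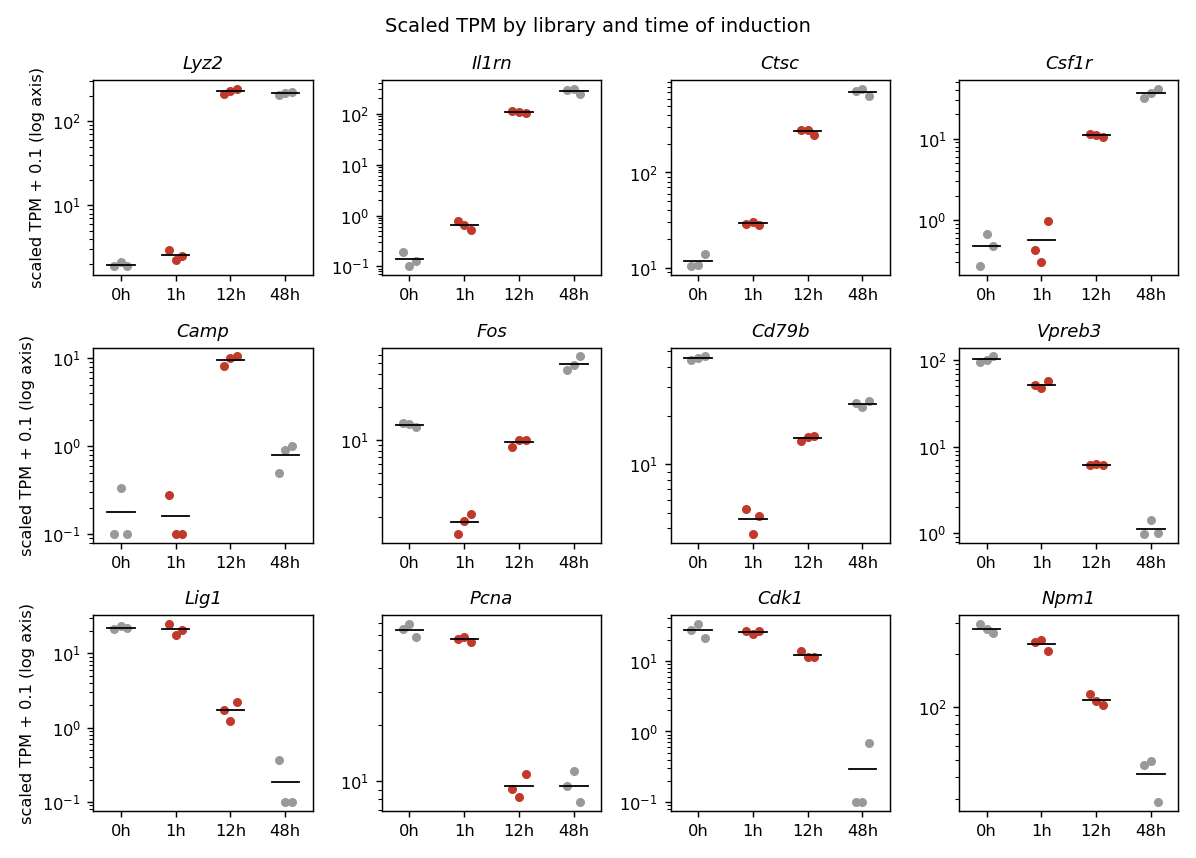
Scaled TPM (0.1 added, log axis with its own range in each panel) of 12 genes at 0h, 1h, 12h and 48h of induction. Points are libraries, with the 1h and 12h libraries in red, and bars are means of 3. Lyz2 steps up between 1h and 12h and stays, Camp rises at 12h and is low again at 48h, Fos and Cd79b dip at 1h, and Lig1, Pcna, Cdk1 and Npm1 fall after 1h.

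Genes of granules, lysozyme and the phagocyte oxidase were higher in 10 of 11 tested cases, against 10.9% of all genes tested. A further 11 of the 22 listed genes did not reach the filter, and Camp, Mmp8, Mmp12 and Prtn3 passed it through their 12h level alone, so these 4 had to differ. Cybb and Ncf1, subunits of the oxidase that makes superoxide, rose from 28.3, 32.0 and 28.1 to 121, 107 and 101 (3.70-fold, adjusted p = 0.000115) and from 5.22, 4.46 and 4.49 to 33.9, 30.9 and 41.4 (7.31-fold, adjusted p = 5.77e-05). Both had risen in the first hour as well, from 3.66 ± 1.11 and 0.532 ± 0.0699. Camp, the cathelicidin of neutrophil granules, was at 0.182, 0 and 0 at 1h, at 8.12, 10.0 and 10.4 at 12h, and at 0.698 ± 0.268 at 48h. Mmp8, a collagenase, was at 0.257, 0.229 and 0.273 at 1h and at 9.93, 6.76 and 6.62 at 12h. Mmp12, the macrophage elastase, was at 3.34, 3.03 and 2.72 at 12h and at 978 ± 210 at 48h, so that its level at 12h was a small part of what followed.

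Surface molecules and receptors of myeloid cells rose together. Of 31 surface and adhesion genes 16 were tested and 13 rose (10.9% of all genes tested did), 6 of the 16 having passed the filter through their 12h level alone. Cd14, a coreceptor for lipopolysaccharide, went from 1.85, 1.37 and 1.76 to 51.8, 60.4 and 53.5 (31.6-fold, adjusted p = 1.46e-05). Clec7a, the receptor for fungal glucans, went from 0.813, 0.771 and 0.799 to 10.6, 10.0 and 10.2 (11.6-fold, adjusted p = 1.81e-05), and the integrin chain Itgal rose by 2.19 on the log2 scale. None of these libraries overlapped. Itgav and Itga4, integrin chains that Pre-B cells also use, differed by -0.83 and -0.04 and did not pass.

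Of 18 growth factor and cytokine receptors 15 were tested and 9 rose, against 10.9% of all genes tested. Of the 9, 6 started after the first hour, against 502 of all 1058 genes called higher. Csf1r, Csf2rb2, Il4ra and Il10rb passed the filter through their 12h level alone, and the call of Il10rb was lost with the replicate block (adjusted p = 0.0564) and without 4 of the 6 libraries in turn (0.0633 to 0.0751). Csf1r, the receptor for CSF-1, which was in the medium, went from 0.323, 0.203 and 0.867 to 11.3, 11.1 and 10.5 (22.2-fold, adjusted p = 0.000314). Csf2ra, the GM-CSF receptor chain, rose from 1.08, 1.30 and 1.32 to 12.4, 14.7 and 13.8 (10.3-fold, adjusted p = 3.4e-05). Both started after the first hour, whereas Csf2rb, the shared chain of the IL-3 and GM-CSF receptors, had already gone from 3.11 ± 1.12 to 29.1 ± 3.56 in the first hour and rose a further 2.35-fold to 68.7 ± 9.56. Csf2rb2, the mouse paralogue of the shared chain and close to it in sequence, rose by 2.98, and Il3ra, the specific chain for IL-3, by 1.34. The call of Il3ra was lost on the TPM as deposited (adjusted p = 0.0535) and without 1h replicate 1 or 2 or 12h replicate 2 or 3 (0.0687 to 0.093). Il6ra, Il17ra and Tnfrsf1b differed by 0.52, 0.68 and 0.22 and did not pass.

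Sensors of bacterial products and the inflammasome rose in 6 of 8 tested cases, against 10.9% of all genes tested. Il1rn and Nlrp3 passed the filter through their 12h level alone, and 13 of the 21 listed genes did not reach it. Tlr2 went from 3.18, 3.13 and 2.83 to 30.1, 31.2 and 28.8 (9.60-fold, adjusted p = 1.61e-05). Nlrp3, the sensor that assembles the inflammasome, was at 0, 0.220 and 0.0682 and then at 4.41, 4.16 and 4.57, and Il1b, the cytokine it helps to release, rose from 1.14, 1.28 and 1.29 to 32.0, 23.6 and 32.3 (21.8-fold, adjusted p = 1.8e-05). Il1b had been listed at 0 at 0h, so it rose in both steps. Gsdmd, the pore protein, passed with 1.35 (adjusted p = 0.0452), but not with any 1 of the 6 libraries left out (adjusted p of 0.0569 to 0.144), nor with the replicate block or on the TPM as deposited (0.0638 and 0.0884). Myd88 and Irak3, which carry and restrain Toll-like receptor signals, differed by 0.98 and 0.67 and did not pass.

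Most of the chemokine genes that could be tested rose. Of 22 chemokine and receptor genes 8 were tested, 6 rose and Cxcr4 fell, against 10.9% and 8.57% of all genes tested. Ccr1, Ccl2 and Ccl6 passed the filter through their 12h level alone and Cxcr4 through its 1h level alone. Ccl9 went from 2.95, 4.88 and 2.09 to 83.2, 84.4 and 92.6 (27.0-fold, adjusted p = 8.85e-05), and Ccl2, which attracts monocytes, from 0.771, 0.737 and 0.867 to 21.9, 18.2 and 16.3 (21.0-fold, adjusted p = 1.8e-05). Both kept rising, to 209 ± 25.6 and 103 ± 6.92 at 48h. Ccr1, a receptor for such chemokines, started after the first hour, with at most 0.0762 at 1h and 3.69 to 4.93 at 12h. Ccr2 differed by 0.73 at 12h and did not pass, but was at 77.8 ± 7.76 at 48h.

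**Figure D4:**
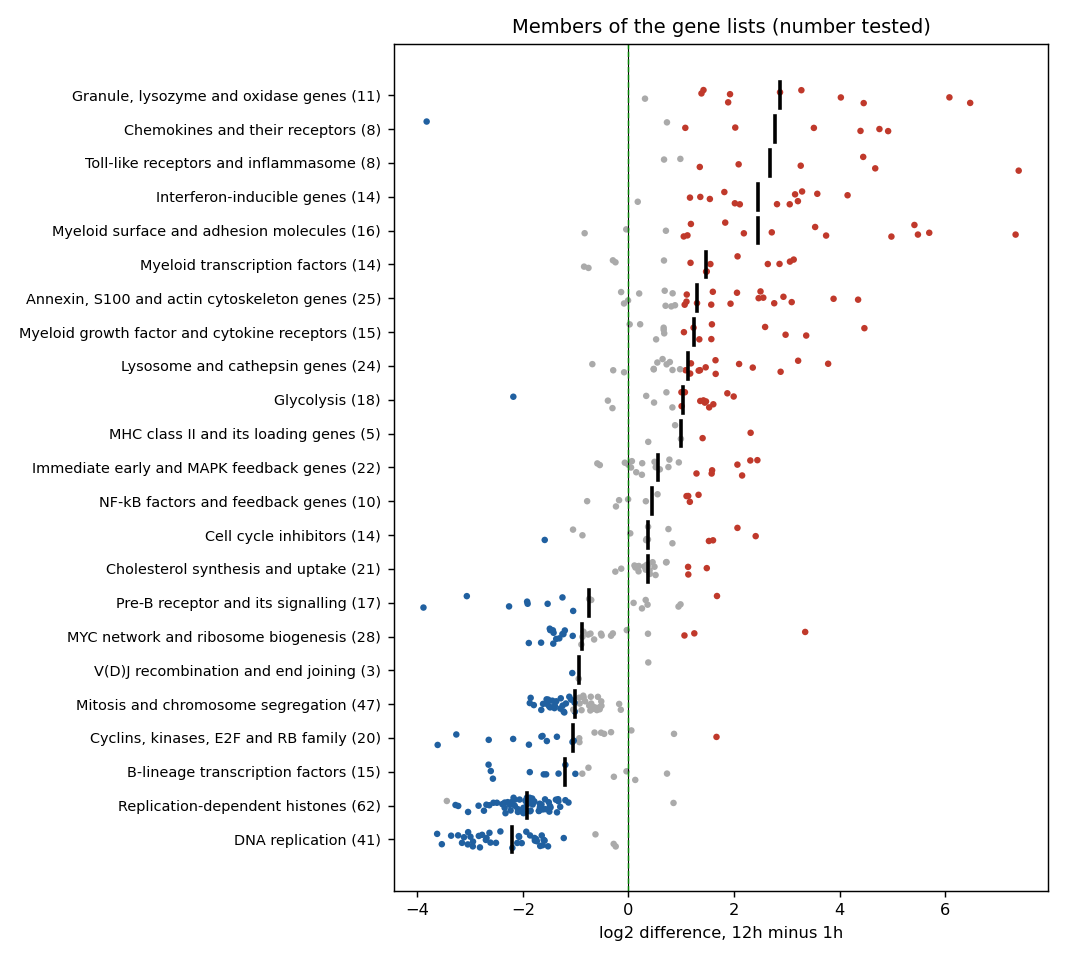
Log2 difference, 12h minus 1h (horizontal axis), of every tested member of 23 gene lists, with the number tested in parentheses. Red points were called higher, blue points lower and grey points neither, black bars are list medians, and the dashed line is the median of all tested genes at -0.01. Replication and histone genes form the lower end and granule, chemokine and Toll-like receptor genes the upper end.

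Lysosomal genes rose in 13 of 24 tested cases (28 listed), against 10.9% of all genes tested, with a list median of 1.13 and none lower, and each had a 1h mean of at least 1. Ctsc, the protease that activates granule proteases (chromosome 7, 88278085 to 88310888), went from 28.5, 30.3 and 28.1 to 281, 283 and 247 (9.28-fold, adjusted p = 1.58e-05). Ctsd, an aspartic protease with exons that overlap Gm49369, went from 4.24, 5.03 and 5.28 to 65.7, 68.7 and 68.8 (13.8-fold, adjusted p = 1.58e-05). Psap, the precursor of saposins, rose 7.37-fold to 122, 122 and 130. The 12h libraries of these 3 genes were all above the 1h libraries, and Ctsd and Psap started after the first hour. Lamp1, Ctss and Laptm5 differed by 0.55, 0.48 and -0.08 and did not pass. Their means at 48h were 76.7, 65.0 and 216 against 19.3, 6.68 and 32.7 at 12h.

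Annexin, S100 and actin genes shape the membrane and cortex of moving cells. They rose in 16 of 25 tested cases (28 listed), against 10.9% of all genes tested. Anxa2, Anxa3, Anxa5 and Emp1 passed the filter through their 12h level alone. Tmsb4x, which sequesters actin monomers, went from 21.5, 24.4 and 21.0 to 78.6, 91.2 and 86.5 (3.82-fold, adjusted p = 9.82e-05). Anxa4 rose 8.53-fold after the first hour, to 19.98, 18.0 and 22.3. Anxa3 and Anxa2 were highest at 12h among the 4 times, at 5.66 ± 0.460 and 3.85 ± 0.244, with 0.988 ± 0.666 and 0.659 ± 0.398 at 48h. Lgals1, a galectin, dipped from 17.1 ± 3.36 at 0h to 6.86 ± 1.09 at 1h and reached 52.8 ± 4.91 at 12h.

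Among 14 tested myeloid transcription factors (23 listed) 9 rose, against 10.9% of all genes tested. Of these, Irf5, Id2, Cebpd and Nfil3 passed the filter through their 12h level alone. Cebpb, a relative of C/EBPα in macrophages, went from 6.41, 5.45 and 7.22 to 14.9, 18.2 and 20.4 (2.77-fold, adjusted p = 0.000796). Id2, an inhibitor of E proteins such as E2A, was at 0.506, 0.551 and 0.555 and then at 5.32, 4.92 and 5.39 (8.33-fold, adjusted p = 8.13e-05), with a start after the first hour. Fosl2, an AP-1 subunit, rose by 2.86. Irf5 and Irf8, factors of monocytes and of B cells alike, were low at 1h and rose by 12h. Irf5 was at 0.863, 0.746 and 0.965 and then at 8.63, 6.95 and 9.35 (8.76-fold, adjusted p = 8.48e-05), after 5.27 ± 1.44 at 0h, and Irf8 rose 2.26-fold (under the fold limit, at 0.97 on the log2 scale, without 1h replicate 2) after a fall from 24.99 ± 2.69 to 7.14 ± 1.63. Spi1, which encodes PU.1, made most of its change in the first hour, from 10.3 ± 0.455 to 25.5 ± 5.26, and was at 40.0 ± 0.0709 at 12h (log2 difference 0.67, adjusted p = 0.0173). The paper found no expression of the mouse Cebpa gene at any time, so the reads counted for Cebpa are taken as those of the rat transgene. They gave 29.5, 29.3 and 37.8 at 1h and 15.6, 18.8 and 19.2 at 12h, under the fold limit.

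The dip at 1h followed by a rise was also seen in some immediate early genes, which respond to growth factor signals. Of 22 tested genes (28 listed) 7 rose, against 10.9% of all genes tested, and none fell. Without the filter 8 rose and 1 fell. Fosb, which did not reach the filter, had no such rise. It was at 13.0 to 15.1 at 0h, 0.639 to 0.945 at 1h and 0.144 to 0.22 at 12h. Fos, a subunit of AP-1 (chromosome 12, 85473890 to 85477273), was at 1.29, 1.73 and 2.01 at 1h and at 8.48, 9.88 and 9.90 at 12h (5.43-fold, adjusted p = 0.000189), after 13.7 ± 0.621 at 0h. Zfp36l2, which destabilises mRNAs, rose by 1.58 from 5.69 ± 0.752 at 1h, after 34.7 ± 3.11 at 0h. Egr2, a zinc finger factor, rose by 2.15. Dusp1, a phosphatase of MAP kinases, had no such dip: it was at 1.07 ± 0.146, 1.39 ± 0.139 and 7.28 ± 0.635 at 0h, 1h and 12h. Jun, Ier2 and Dusp6 differed by 0.59, 0.15 and 0.25 between 1h and 12h and did not pass. For genes that dip at 1h the choice of 1h as the base of the comparison sets the sign, and both steps share these 3 libraries. Of 10 tested NF-kB genes (15 listed) 4 rose, against 10.9% of all genes tested. These were Tnfaip3, Nfkb2, Nfkbia and Tnf, by 1.10 to 1.33 on the log2 scale. On the TPM as deposited 1 gene of the list passed, and with a pseudocount of 1 none did (0 of 10).

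Interferon-inducible genes rose in 13 of 14 tested cases, against 10.9% of all genes tested, with a list median of 2.46. A further 17 of the 31 listed did not reach the filter. Among these, Isg15 was at most 0.182 at 1h and at 1.20 to 2.19 at 12h. Gbp3 was at 0.57 to 1.18 at 1h and at 0.16 to 0.58 at 12h. Oasl1, Irf7, Usp18, Oas1a, Oasl2 and Ddx58 passed the filter through their 12h level alone. Irf7, which amplifies the type I interferon response (chromosome 7, 141262706 to 141266481, with exons that overlap Phrf1), was at 0.0415, 0.576 and 0.419 at 1h, at 4.22, 4.33 and 4.31 at 12h (adjusted p = 0.00329), and at 247 ± 45.5 at 48h. Oasl1 and Usp18, which restrain the interferon response, rose by 4.15 and 3.29. For Irf7 each 12h library lay above those of 1h, and at 48h the level was higher still. Gbp7 was the member that did not pass, with 0.18. Of 5 tested MHC class II genes (10 listed) 2 rose, against 10.9% of all genes tested. Cd74, the invariant chain, rose 4.97-fold to 10.1, 9.55 and 9.72 and H2-DMb1 by 1.40. Ciita, the class II activator, stayed at or below 0.185 in each library.

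Many glycolytic genes rose by 12h. Of 18 tested genes (19 listed) 11 rose and 1 fell, against 10.9% and 8.57% of all genes tested. The share that fell is near the background. On the TPM as deposited 7 passed as higher. Slc2a1, the glucose transporter GLUT1 (chromosome 4, 119108711 to 119137983), was at 4.58, 3.66 and 3.36 at 1h, at 13.1, 14.7 and 15.2 at 12h (3.66-fold, adjusted p = 0.00022), and at 5.39 ± 1.15 at 48h. Aldoa, the aldolase, was at 81.0, 77.9 and 92.7, then at 218, 245 and 264 (2.89-fold, adjusted p = 0.000243), and at 123 ± 31.1 at 48h. Both started after the first hour, and 8 of the 11 did, against 502 of all 1058 genes called higher. Hk1, a hexokinase, and Pfkfb4, a relative of Pfkfb3, rose by 1.99 and 1.61 on the log2 scale. The call of Pfkfb4, which passed the filter through its 12h level alone, was lost on the TPM as deposited (adjusted p = 0.0617) and without each library other than 1h replicate 1 (0.0634 to 0.093). Pfkfb3, an enzyme that sets the pace of glycolysis, fell 4.54-fold from 14.7, 17.1 and 14.5 to 2.38, 3.87 and 3.93, after a rise in the first hour from 4.87 ± 1.54. Ldha differed by 0.34 and did not pass. Relative to 0h the median member of the list lay at -0.23 at 1h, 0.79 at 12h and 0.20 at 48h. Of 21 cholesterol genes 3 rose (10.9% of all genes tested did, so the share is near the background), Mvd and Insig1 among them by 1.48 and 1.13, and 18 did not pass. On the TPM as deposited 1 passed.

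The short sequences in the promoters differed between the groups. A RefSeq promoter of 300 bases (250 before the start site and 50 after it) was found for 6973 of the 9696 tested genes, 121 of them through an older symbol, and both strands were searched. The E2F motif TTTNGCGC was in 36.4% of 33 replication genes, 21.8% of 55 histone genes, 4.88% of 41 mitosis genes, 9.06% of 629 genes called lower, 2.20% of 774 called higher and 3.37% of all tested genes, against 1.38% of all 32851 promoters. The CHR motif TTTGAA was in 70.7% of the mitosis genes, 47.3% of the histone genes, 15.2% of the replication genes and 15.0% of all tested genes (17.9% of all promoters). The NF-Y motif CCAAT was in 83.6% of the histone genes, 75.6% of the mitosis genes, 60.6% of the replication genes and 43.8% of all tested genes (37.4% of all promoters). The replication list thus held E2F matches more often than the mitosis list, and the mitosis list CHR matches more often than the replication list, without a test.

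Among genes called higher, the C/EBP motif TTGCNNAA was in 12.7%, against 10.0% of genes called lower and 9.82% of all tested genes (10.8% of all promoters). Of the 55 histone genes tested 23.6% held it. The AP-1 motif TGANTCA was in 9.82%, 3.66% and 5.31% (7.81% of all promoters), and the PU.1 motif GAGGAAGT in 6.46%, 2.23% and 4.09% (3.20% of all promoters). The E-box CACGTG was in 11.2%, 12.4% and 12.4% (7.15% of all promoters). The AP-1 and PU.1 shares were thus highest in the genes called higher and lowest in those called lower. Fcgr3 and Mmp8, shown above, are 2 of the genes called higher with a C/EBP match; the promoters of Lyz2, Il1rn and Cebpb held none in this window, which says nothing about C/EBPα at these genes. A match is not a bound site. Matches of different motifs were counted separately and may share bases.

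**Figure D5:**
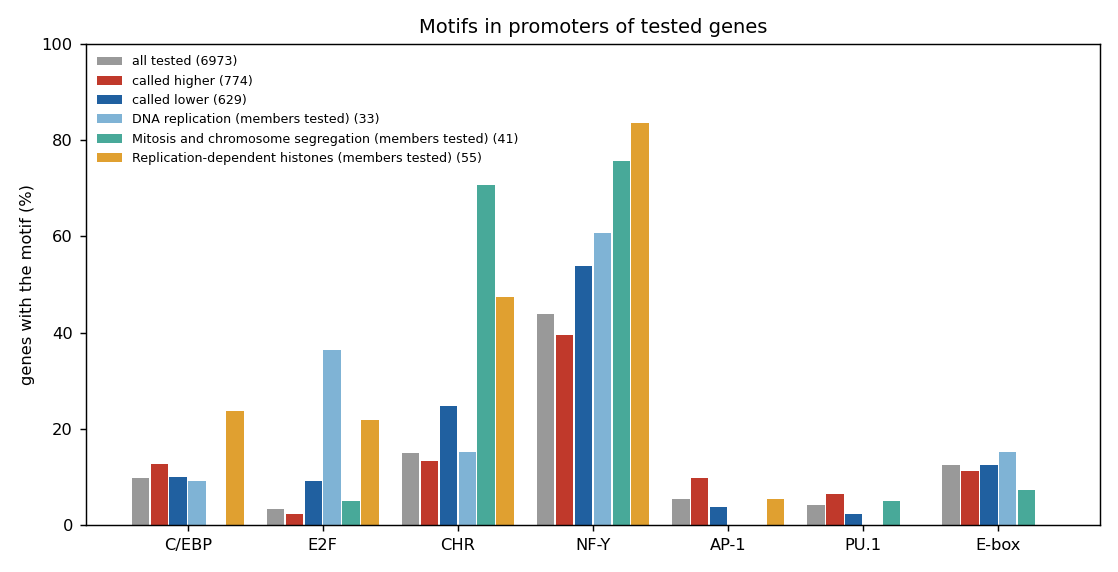
Share of genes, in percent, whose 300-base RefSeq promoter holds each of 7 motifs on either strand, for all tested genes, the genes called higher or lower at 12h, and the tested members of 3 lists (numbers of genes in the key). The E2F bar is highest for replication genes at 36.4% and the CHR bar for mitosis genes at 70.7%.

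The Promoter Capture Hi-C lists of the same cells at 1h and 12h were set beside the RNA. There was 1 list for each time, merged over replicates by the authors, so there is no replicate error and no test. The lists held 137836 interactions at 1h and 131598 at 12h, each pair counted once. Of the genes called higher, 879 had a baited start site, with a median of 9 interactions at either time; 46.0% had more at 12h and 46.3% fewer. Of the 714 genes called lower with a baited start site, 31.1% had more and 60.1% fewer, and the median went from 9 to 8. Among 6544 genes called in neither direction 39.5% had more and 49.6% fewer. Il1rn went from 7 to 13 interactions, Ctsc from 10 to 20 and Cd14 from 5 to 10, whereas Tyrobp went from 11 to 5 and Cebpb from 27 to 17 while their RNA rose. Among genes that fell, Mcm6 went from 35 to 23, Rrm2 from 47 to 37 and Cxcr4 from 57 to 41, and Dtl from 53 to 61. Genes that share a bait share its interactions, and the lists follow how many pairs were sequenced at each time.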

How the data were processed

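RNA was measured in C10 cells at 0h, 1h, 12h and 48h of induction, with 3 biological replicates at each time. Per the study's methods, the authors depleted rRNA from total RNA, made single-end libraries with a kit that does not mark strand, merged technical replicates, trimmed with Trim Galore 0.6.2, aligned with HISAT2 2.1.0 to mm10 and obtained TPM with RSEM. The deposited values used here are these TPM, which keep no read depth, so no count test was run. Without strand, overlapping genes cannot be told apart.

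TPM were scaled by median-of-ratios size factors against the geometric mean of the 6 libraries of 1h and 12h (0h and 48h libraries were set to the same reference), and genes were kept where TPM averaged 1 or more across the 1h and 12h libraries. The log2(scaled TPM + 0.1) values were compared with limma 3.58.1 (moderated, with a mean trend, two-sided) in R 4.3.3, with Benjamini-Hochberg adjustment over 9696 genes. A gene was called at an adjusted p under 0.05 and a log2 difference beyond 1. Fold changes are on the log2(value + 0.1) scale, which understates the change of low genes. Every adjusted p is from this fit. Nothing in the sources says that replicates came from separate thaws or days, so the p-values measure the spread between these libraries. The 1h minus 0h difference was fitted in the same way.

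Data were simulated from these libraries with 200 of 9696 genes changed. Of genes changed by 1.5 and 3 on the log2 scale, 74% and 98% were called higher. Of those changed by -1.5 and -3, 70% and 94% were called lower, and 7 unchanged genes were called. Changed genes were drawn without those of lowest mean log2 level, with 50 for each size and direction. The real data had more called genes and an uneven split, so these rates do not carry over to their calls.

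The members and gene lists were chosen with earlier results of these data known. Genes named were the 10 of largest log2 difference in each direction with a mean of at least 5 in the higher group, no overlap between libraries and an established symbol, the 5 of largest difference in each direction among those that started after the first hour, called members of the lists with the 3 of largest change in each direction, and list members that did not pass, given as values. Gene positions are from GENCODE M21 (GRCm38). Promoters are from RefSeq. The deposited promoter interaction lists, called by the authors with CHiCAGO on merged replicates, were counted per baited start site. Another scaling, pseudocount, filter, threshold, model and set of libraries were tried. The other assays of the series were not used here. Some genes that the rule would name are not reported here.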

Additional observations from a re-analysis of the deposited data

How the results depend on the processing

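On the TPM as deposited, without further scaling, 680 genes were higher and 1484 lower, and 267 rose after the first hour. With a pseudocount of 1, 531 genes were lower and 368 fell after the first hour. With a mean TPM of at least 5, 495 genes were higher and 385 lower. With a log2 difference beyond 2, 296 were higher and 186 lower, and by adjusted p alone 1871 and 1646, since each rule by construction tests or keeps fewer or more genes. With 1h and 0h within 0.3, 332 genes rose after the first hour. Why the counts moved with the scaling and the pseudocount was not tested. Leaving out 1 library at a time gave 942 to 1016 genes higher, 724 to 822 lower, 451 to 482 that rose after the first hour and 480 to 543 that fell after it. The sources do not say what replicates of the same number share. Their deviations from the group means correlated with r of 0.14, 0.04 and 0.17 across genes. For replicates of different number r was -0.18 to 0.05. Replicate 3 had the lowest share of the ribosomal RNA pair at each time, with 70.3% at 1h and 72.8% at 12h. With the replicate number as a block, 1054 genes were higher and 826 lower. Of the 1889 calls, 1510 were kept on the TPM as deposited and 1288 with a pseudocount of 1. No called gene reversed its direction under an alternative that tested it, which the limit of 1 for a call made likely beforehand. Among named genes that were not called, some reversed on the TPM as deposited, to a log2 difference of -0.23 for Btk, -0.078 for Dusp6, -0.15 for Gbp7, -0.18 for Ier2, -0.0023 for Syk and -0.11 for Tnfrsf1b. When 1 library was left out at a time, the difference ranged from -1.65 to 3.80 for Hist1h2aj, from -0.10 to 0.0054 for Itga4, from -0.72 to 0.048 for Orc1 and from -0.30 to 0.017 for Ube2c. Of the lists, genes of mitosis were lower in 35 cases and glycolytic genes higher in 7 on the TPM as deposited, and no gene of mitosis differed by more than 2 on the log2 scale. TPM hold no depth, so the counting error of low genes is unknown.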
